A study of Mus musculus with 7 samples.

Results

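Ribosome footprints were described for 9 mouse genes of the Langerhans cell and of the MHC class II pathway, chosen by their symbols: Cd207, Epcam, Cd74, H2-Aa, H2-Ab1, H2-Eb1, H2-DMa, H2-DMb1 and Ciita. All 9 were found among the 13167 transcripts counted, each in 1 row, and all 9 passed the filter on low counts. The footprints came from primary epidermis of 2 wild-type (WT) libraries and of 2 libraries with a transgenic knockout of Pelota (KO), the factor encoded by Pelo that frees stalled ribosomes from mRNA. Strain, age, the promoter or Cre that drove the knockout, and whether replicates came from separate animals are not given in the labels, so p-values measure the spread between these libraries only.

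Langerhans cells are the dendritic cells of the epidermis. They take up protein, cut it in endosomes and show the peptides to T helper cells on MHC class II molecules. The α and β chains of these molecules (H2-Aa with H2-Ab1, and H2-Ea with H2-Eb1) assemble on the invariant chain Cd74, which guards the peptide groove until it is degraded. The H2-DM dimer (H2-DMa with H2-DMb1) then helps to exchange the last invariant chain fragment for a peptide. Ciita is the coactivator that switches this gene set on. Cd207 (langerin) is the C-type lectin that forms Birbeck granules, and Epcam is an adhesion molecule found on Langerhans cells and, in mouse skin, also on keratinocytes of the hair follicle. Macrophages, other dendritic cells and B cells also carry class II genes, so of these genes only Cd207 is near to specific for Langerhans cells, and it also marks a subset of dermal dendritic cells.

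Class II promoters are known for an X box, bound by RFX and CREB family factors, followed by a Y box, bound by NF-Y. RefSeq promoter windows (GRCm38.p6, 250 bases before to 50 after a gene start) were found for 6 of the 9 genes. The 130 bases just before the start are shown for H2-Aa (chr17:34287824-34287953, - strand), H2-Eb1 (chr17:34305737-34305866, + strand) and H2-DMb1 (chr17:34153061-34153190, + strand), the class II genes with a match to both boxes. Sequences read 5′ to 3′ along the gene, and capitals mark matches to 3 motifs searched on both strands: AACNGATG (X box core), TGACGTCA (X2 box octamer) and GATTGG (Y box core).
H2-Aa: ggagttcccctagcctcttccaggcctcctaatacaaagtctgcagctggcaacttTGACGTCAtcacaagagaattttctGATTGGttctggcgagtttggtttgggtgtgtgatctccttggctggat
H2-Eb1: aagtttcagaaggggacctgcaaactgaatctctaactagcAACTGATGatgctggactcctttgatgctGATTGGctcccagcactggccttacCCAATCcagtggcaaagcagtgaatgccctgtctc
H2-DMb1: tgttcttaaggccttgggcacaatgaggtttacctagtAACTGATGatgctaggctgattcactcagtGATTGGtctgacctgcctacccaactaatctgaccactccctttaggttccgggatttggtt
In H2-Eb1 the X box core began 89 bases before the start and the Y box core 60 bases before it, with 21 bases between them. In H2-DMb1 they began at 92 and 62 bases, with 22 bases between. H2-Aa had the X2 octamer at 74 bases and the Y box core at 49, with 17 bases between. This gap is measured from the X2 octamer and not from the X box core, so it is not comparable with the gaps of H2-Eb1 and H2-DMb1. H2-Eb1 also held GATTGG on the other strand, 35 bases before the start. None of the 3 motifs was present in the 250 bases before the start of Cd207 or Epcam, and of 2 windows for H2-DMa 1 held only the Y box core, 199 bases before its start. Among all 32851 RefSeq windows, 1.98% held the X box core, 1.55% the X2 octamer and 14.6% the Y box core before the start; 0.511% held the Y box core with either of the others. The motifs were chosen with these windows in view, and a match is a description of letters, not a bound site.

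The 7 class II genes among the 9 carried fewer footprints in the knockout, Epcam carried more, and Cd207 lay between. Of the 9 genes, 7 fell and 1 rose at an adjusted p under 0.05 (edgeR's quasi-likelihood test, Benjamini-Hochberg adjustment over 10953 genes), and Cd207 missed the threshold. Over all genes tested, 19.1% fell and 19.9% rose. The median log2 change of the 7 class II genes was −0.91, against −0.02 for all genes. Together these 7 genes took 0.311% and 0.347% of all coding footprints in the KO libraries against 0.741% and 0.763% in the WT libraries. In bulk tissue, fewer cells of a type and less RNA or fewer footprints per cell cannot be told apart. RNA-seq was not analysed here, so mRNA level and ribosome load cannot be told apart either.

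Depth was 4925876 and 4521561 coding footprints for the KO libraries, and 5282276 and 4221675 for the WT libraries. Pelo itself was covered by 24 and 21 footprints in the KO libraries and by 101 and 61 in the WT libraries (log2 change −1.65, SE 0.245, adjusted p = 0.000807, edgeR). Against the labelled epidermis, 8 dermal fibroblast markers summed to 44891 and 49457 CPM (coding footprints scaled to a common library size) in KO and 81505 and 127197 in WT. The 8 keratinocyte markers summed to 72465 and 64387 CPM in KO and 24644 and 25909 in WT. A sum follows its most abundant genes. Of the keratinocyte markers 5 rose, 1 fell and 2 were not called (log2 changes −0.48 to 3.06). Of the fibroblast markers 6 fell and 2 were not called (−1.47 to −0.14). Fibroblast markers were thus present in every library with a higher sum in WT, and their part in the class II results was not tested.

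**Figure D1:**
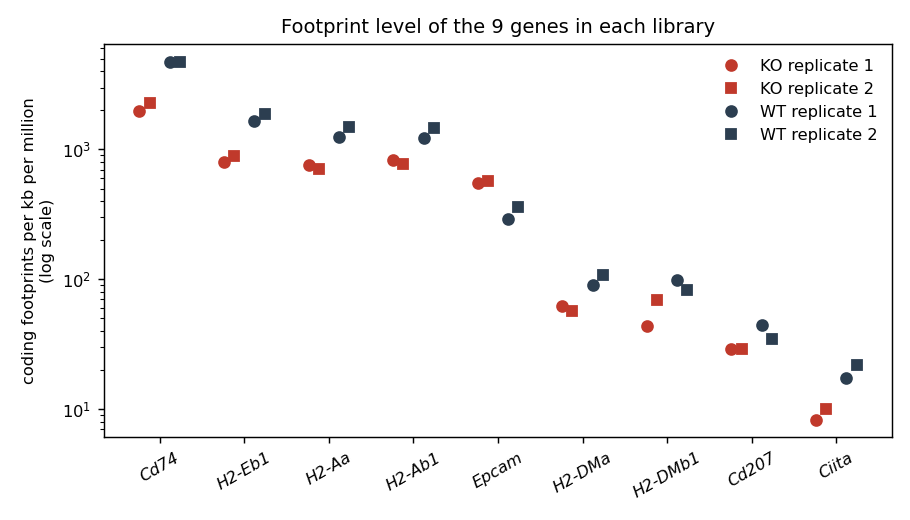
Coding footprint density (CPM per kb, log scale) of the 9 genes in each of the 4 libraries, ordered by the WT mean; red points are KO and dark points WT. Cd74 stood at 4705 and 4731 in WT and at 1983 and 2292 in KO, and KO lay above WT for Epcam alone among the 9.

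Per unit of coding length, Cd74 was the most heavily occupied of the 9 and Ciita the least. In WT, Cd74 stood at 4718 ± 17.9 CPM per kb (mean ± SD, n = 2, as for the other levels in this paragraph). H2-Eb1 followed at 1771 ± 144, then H2-Aa at 1369 ± 183 and H2-Ab1 at 1351 ± 175, of which the last pair did not differ beyond its spread. Epcam had 327 ± 47.8, H2-DMa 99.6 ± 12.4, H2-DMb1 90.8 ± 10.7, Cd207 39.3 ± 6.82 and Ciita 19.6 ± 3.04. The H2-DM genes were again within each other's spread. In KO the same genes ran from 2137 ± 219 for Cd74 to 9.16 ± 1.23 for Ciita, and the gap between Epcam (560 ± 19.3) and the class II chains had narrowed: H2-Eb1 stood at 846 ± 72.5, H2-Ab1 at 802 ± 42.4 and H2-Aa at 730 ± 31.1.

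Cd74, the invariant chain, fell by about as much as Ciita and H2-Eb1, whose values lay within 1 SE of it. It was covered by 7010 and 7690 footprints in the KO libraries and by 20865 and 15988 in the WT libraries, which is 1546 and 1788 CPM against 3670 and 3690 CPM. The KO libraries lay far below the WT libraries, which were almost equal. The fall was 2.21-fold (log2 change −1.14, SE 0.136, adjusted p = 0.000217, edgeR).

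The α and β chains fell as well. H2-Eb1, the β chain of the I-E molecule, had 584 and 660 CPM in KO and 1227 and 1376 CPM in WT (log2 change −1.06, SE 0.127, adjusted p = 0.000218, edgeR). H2-Aa, the α chain of I-A, had 535 and 503 CPM in KO and 881 and 1065 CPM in WT (log2 change −0.91, SE 0.13, adjusted p = 0.000661). H2-Ab1, its β chain, had 614 and 570 CPM in KO and 906 and 1088 CPM in WT (log2 change −0.75, SE 0.13, adjusted p = 0.00188). For each of these chains both KO libraries were below both WT libraries. The partners H2-Aa and H2-Ab1 are needed in equal numbers, and their footprint densities were near equal: H2-Aa had 0.904 and 0.917 times the density of H2-Ab1 in KO and 1.01 and 1.02 times in WT. H2-Eb1 relative to H2-Ab1 stood at 0.956 and 1.16 in KO and at 1.36 and 1.27 in WT. Cd74 relative to H2-Ab1 stood at 2.38 and 2.97 in KO and at 3.83 and 3.21 in WT. All 3 ratios were lower in both KO libraries, but they share 1 denominator, H2-Ab1, which fell least of these chains. Cd74 relative to H2-Eb1 stood at 2.49 and 2.55 in KO and at 2.82 and 2.53 in WT, which overlapped. How often such ratios overlap over all genes was not counted. A two-sided exact permutation test of 2 against 2 libraries cannot give a p below 0.33, so these ratios are given without a test.

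The peptide-exchange dimer fell by a similar size, with H2-DMb1 the least steady of the 9 genes. H2-DMa had 45.2 and 41.1 CPM in KO and 66.0 and 78.7 CPM in WT (log2 change −0.74, SE 0.139, adjusted p = 0.0029, edgeR). Relative to H2-Ab1 its density was nearly the same in every library, at 0.0749 and 0.0734 in KO and 0.0740 and 0.0735 in WT. H2-DMb1 had 31.5 and 50.2 CPM in KO and 71.4 and 60.5 CPM in WT (log2 change −0.70, SE 0.2, adjusted p = 0.0221). The KO replicates of H2-DMb1 lay far apart, and its call was lost without KO replicate 1 (−0.39, adjusted p = 0.0978) and without WT replicate 1 (−0.57, adjusted p = 0.114). It was also lost with unlisted counts set to 0 (adjusted p = 0.0791), and its adjusted p ran from 0.000136 to 0.114 over the alternatives. The close copy H2-DMb2 was searched for and not found among the transcripts counted. The sources used here do not say how reads matching both copies were counted, so the H2-DMb1 value is uncertain.

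Ciita, the coactivator, fell with the genes it controls. It was covered by 128 and 147 footprints in the KO libraries and by 338 and 321 in the WT libraries, or 28.2 and 34.2 against 59.5 and 74.1 CPM, with no overlap. The fall was 2.13-fold (log2 change −1.09, SE 0.16, adjusted p = 0.000741, edgeR). Its density was 0.00418 and 0.00438 times that of Cd74 in KO and 0.00371 and 0.00460 times in WT, so this ratio overlapped between genotypes.

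Cd207, the gene nearest to specific for Langerhans cells, was lower in both KO libraries by a small margin. It was covered by 123 and 116 footprints in the KO libraries and by 235 and 140 in the WT libraries. In CPM this was 27.1 and 27.0 in KO and 41.3 and 32.3 in WT, so the KO replicates were almost equal and the WT replicates were not. The log2 change was −0.45 (SE 0.162, adjusted p = 0.0521, edgeR), or 1.37-fold. The call turned on the setting: Cd207 passed without WT replicate 2 (−0.61, adjusted p = 0.0235) and with the replicate number as a block (−0.44, adjusted p = 0.0454), stood at −0.26 without WT replicate 1, and had an adjusted p of 0.247 with DESeq2 and of 0.0189 to 0.321 over all alternatives. Relative to H2-Ab1, the density of Cd207 was 0.0348 and 0.0373 in KO and 0.0360 and 0.0234 in WT, which overlapped. Whether Cd207 fell less than the class II genes was not tested.

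Epcam was the exception in direction. It was covered by 2201 and 2193 footprints in the KO libraries and by 1481 and 1389 in the WT libraries, which is 486 and 510 CPM against 261 and 321 CPM, without overlap. The rise was 1.71-fold (log2 change 0.78, SE 0.129, adjusted p = 0.00153, edgeR), and leaving out any 1 library left it between 0.63 and 0.93 and called. Epcam had 18.9 and 19.9 times the density of Cd207 in KO and 6.64 and 10.5 times in WT. Epithelial genes moved beside it: of 9 tested genes of the list of Epcam partners and epithelial genes, 5 rose and 4 were not called, with a median of 0.37. The rises were led by Krt19, a keratin of the follicle bulge (1.47, adjusted p = 7.71e-05), the hyaluronan receptor Cd44 (1.06), the membrane protease matriptase, St14 (0.63), and its inhibitor Spint1 (0.51). Spint1 lost its call with library totals alone (0.33, adjusted p = 0.0652) and with DESeq2 (adjusted p = 0.056). The part of keratinocytes in the rise of Epcam was not tested.

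**Figure D2:**
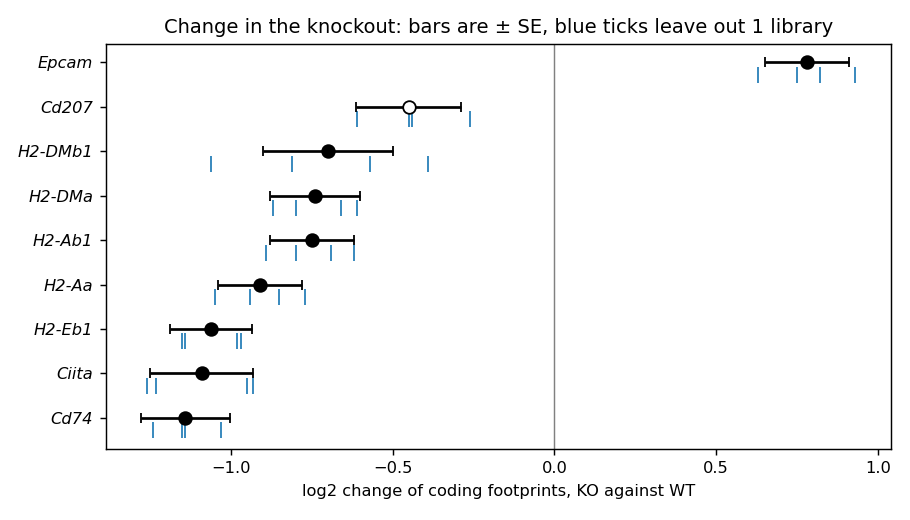
Log2 change of coding footprints (KO against WT) of the 9 genes, as the point with its SE (bars); filled points passed the threshold and the open point, Cd207, did not, and blue ticks give the values with 1 library left out. The 7 class II genes lie between −1.14 and −0.70, Cd207 at −0.45 and Epcam at 0.78.

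In each of the 9 genes the KO libraries did not overlap the WT libraries, 8 lying below and 1 above. Over all genes, both KO libraries lay below both WT libraries in 36.5% and above them in 35.4%.

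Replicates of 1 genotype stood apart within the MHC. H2-Ea-ps, which pairs as the I-E α chain with H2-Eb1 and is known to be silent in mouse strains whose MHC haplotype has a promoter deletion, C57BL/6 among them, split each genotype: KO replicate 1 held 13 of its footprints and KO replicate 2 held 576, while WT replicate 1 held 1392 and WT replicate 2 held 28. KO replicate 2 thus had 46.7 times the CPM of KO replicate 1, and WT replicate 1 had 37.9 times that of WT replicate 2. It did not pass the test (log2 change −0.91, SE 1.28, adjusted p = 0.608, edgeR), and the value ran from −5.45 without KO replicate 2, where it was called (adjusted p = 0.000887), to 3.39 without WT replicate 1. Of the 22 tested genes with an H2 symbol that are not among the 9, H2-Ea-ps included, 16 (72.7%) were higher in KO replicate 2 than in KO replicate 1 and in WT replicate 1 than in WT replicate 2, as were 24.2% of the 10492 genes with a mean of at least 20 counts. The direction counted was that of H2-Ea-ps itself, and the 22 genes were not held to a mean of 20 counts. Many of these H2 genes have near-identical copies, so their separate counts are uncertain. Of the 5 H2 genes among the 9, only H2-DMb1 showed this split: H2-DMa had 1.43 and 1.30 times its density in KO replicate 1 and WT replicate 2, and 0.819 and 0.924 times in KO replicate 2 and WT replicate 1. H2-Aa, H2-Ab1 and H2-DMa were slightly higher in the other library of each genotype. Strain and MHC haplotype are not given in the labels, each genotype held 1 library of either kind, and the part of this split in the changes was not tested.

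**Figure D3:**
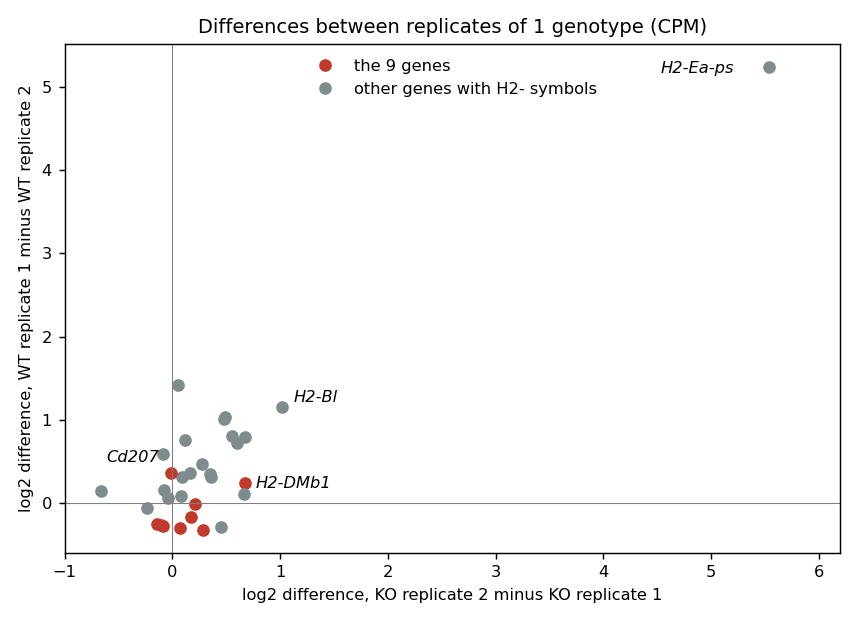
Log2 difference in CPM between replicates of 1 genotype, KO replicate 2 minus KO replicate 1 on the x axis and WT replicate 1 minus WT replicate 2 on the y axis; red points are the 9 genes and grey points the other tested genes with an H2 symbol. H2-Ea-ps lies at 5.54 and 5.24, and of the 9 genes H2-DMb1 lies farthest to the right, at 0.67 and 0.24.

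Further class II genes fell, while 2 endosomal proteases rose. In the list of MHC class II loading and transport genes, 6 of 14 tested fell, 2 rose and 6 were not called, with a median of −0.56. The background for this and every other list count is the share over all genes tested, of which 19.1% fell and 19.9% rose. H2-Ob (3.09 and 3.95 CPM in KO, 12.8 and 10.4 CPM in WT, −1.73, adjusted p = 0.00125, edgeR) and H2-Oa (−1.42, adjusted p = 0.00449) encode the dimer that restrains H2-DM, and H2-Eb2 (−1.26, adjusted p = 0.000957) is a second I-E β gene. The tetraspanins Cd82 (−1.84) and Cd9 (−0.62) fell too, though neither is particular to antigen-presenting cells. Cathepsin L, Ctsl (0.97, adjusted p = 0.000251), and cathepsin B, Ctsb (0.55), rose, both being widely expressed. Ctss, the cathepsin known for invariant chain cleavage in antigen-presenting cells, had 175 and 152 CPM in KO and 142 and 154 CPM in WT and did not pass (0.15, adjusted p = 0.375).

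Of 16 genes that act in class II transcription, 5 fell and 11 were not called, with a median of −0.23. Rfx5, the X box factor subunit, had 8.82 and 7.67 CPM in KO and 17.2 and 16.8 CPM in WT (−1.04, SE 0.207, adjusted p = 0.00376, edgeR). Jak2 (−0.79), the interferon-γ receptor Ifngr1 (−0.73) and Irf1 (−0.70), which act in the interferon-γ route to Ciita, fell as well. Irf1 lost its call without KO replicate 2 (−0.48) and without WT replicate 1 (−0.55). Spi1, the myeloid factor PU.1, stood at −0.60 (adjusted p = 0.0564) and was called without KO replicate 1 (−0.94).

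Of 19 tested genes of MHC class I presentation, 7 fell and 12 were not called, with a median of −0.36. The falls were led by the immunoproteasome subunits Psmb10 (−0.90), Psmb9 (−0.80) and Psmb8 (−0.78) and by Nlrc5, the class I counterpart of Ciita (−0.68, adjusted p = 0.0161, edgeR). Psmb9 and Nlrc5 lost their calls without KO replicate 1 (−0.54 and −0.47) and without WT replicate 1 (−0.37 and −0.48). The class I chains were divided. The classical heavy chains H2-K1 (−0.35, adjusted p = 0.052) and H2-D1 (−0.30), H2-Q4 (−0.43) and the light chain B2m (−0.21) did not pass, while the nonclassical H2-T23 did (−0.52, adjusted p = 0.0165). Outside this list, H2-M3 (−0.91), H2-Q5 (−0.46) and H2-Q7 (−0.38) also passed, and are named after their values were seen. Among other genes with an H2 symbol, H2-M2 (−0.70) and H2-M5 (−0.92) passed too. H2-Bl (−0.27), H2-Q1 (−0.34), H2-T24 (−0.39), H2-Q2 (−0.45), H2-Q10 (−0.50), H2-T22 (−0.54) and H2-T3 (−0.56) did not pass. H2-K1 (−0.42) and B2m (−0.45) were called without WT replicate 2, and H2-K1 (−0.52) and H2-D1 (−0.47) with library totals alone.

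**Figure D4:**
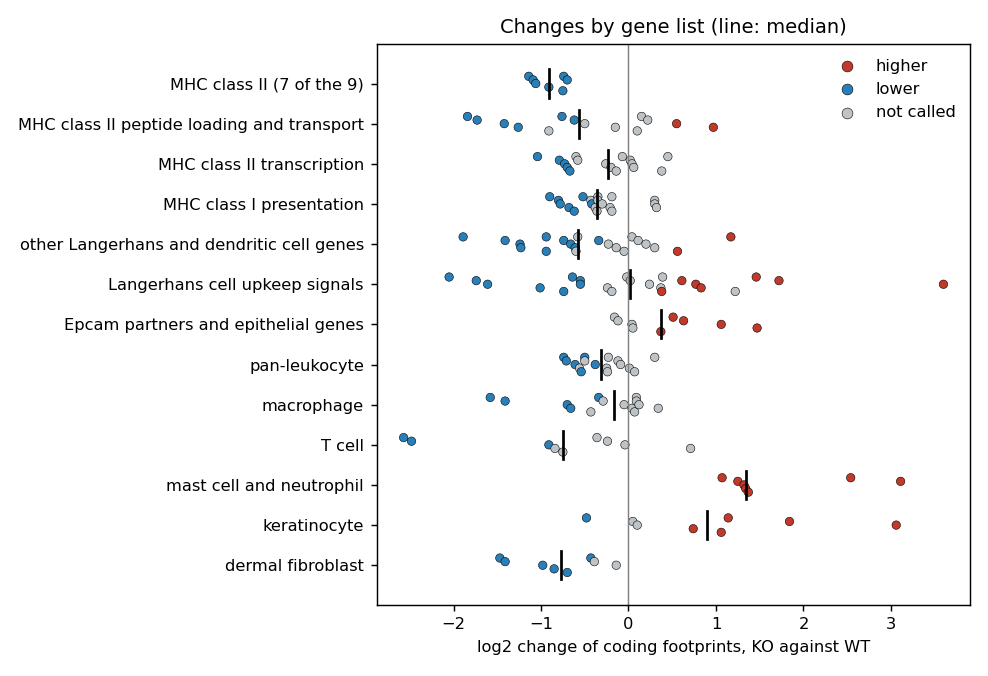
Log2 change of coding footprints (KO against WT) of each tested gene, by gene list, with the list median as a line; red points rose, blue points fell and grey points were not called. The 7 class II genes have a median of −0.91, the loading and transport genes −0.56 and the macrophage genes −0.17.

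Genes of other antigen-presenting cells went several ways. Of 21 tested genes on the list of other Langerhans and dendritic cell genes, 10 fell, 2 rose and 9 were not called, with a median of −0.58. Log2 changes on this list ran from −1.89 to 1.17. Fscn1, a gene of mature dendritic cells described below, rose (1.17). Irf4 (3.97 and 3.72 CPM in KO, 9.67 and 19.6 CPM in WT, −1.89, adjusted p = 0.00436, edgeR), a transcription factor of type 2 dendritic cells, and the C-type lectins Mgl2 (−1.41) and Clec10a (−1.24), carried by such cells and by dermal macrophages, led the falls with the decoy receptor Il1r2 (−1.23). Cd209a, a lectin of dermal dendritic cells, was listed at 57 footprints in KO replicate 1, not listed in KO replicate 2, which allows 6 at most, and stood at 199 and 278 in WT. Itgax (CD11c), carried by Langerhans cells and other dendritic cells, had 35.3 and 26.5 CPM in KO and 31.7 and 32.3 CPM in WT (−0.05, adjusted p = 0.851). Flt3, a receptor of dendritic cells that Langerhans cells do not depend on, fell (−0.74, adjusted p = 0.0251) but lost its call without either KO replicate (−0.71 and −0.74) and without WT replicate 1 (−0.65). Zbtb46, a factor of conventional dendritic cells, was listed only in WT replicate 1, with 20 footprints.

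Among macrophage genes, 5 of 14 fell and 9 were not called, with a median of −0.17. The complement genes C1qa (484 and 419 footprints in KO, 540 and 450 in WT, 0.04, adjusted p = 0.828, edgeR) and C1qb (0.07, adjusted p = 0.662) did not pass, while Mertk (−1.58), Cd163 (−1.41), Lyz2 (−0.70) and Adgre1 (F4/80, also on Langerhans cells, −0.66) fell. Cd163 ran from −2.09 without KO replicate 1 to −0.94 without KO replicate 2, and lost its call with DESeq2 (adjusted p = 0.0907) and with unlisted counts at 0 (adjusted p = 0.0517). The summed macrophage markers were 1509 and 1289 CPM in KO and 1716 and 2152 CPM in WT. Csf1r, the receptor for Il34 and Csf1, stood at −0.34 (adjusted p = 0.0444) and was called in none of the fits that left out 1 library (−0.42 to −0.25). Of 16 pan-leukocyte genes 6 fell and 10 were not called, with a median of −0.32 and sums of 824 and 895 CPM in KO and 1081 and 1149 CPM in WT. Ptprc (CD45) had 138 and 149 CPM in KO and 210 and 227 CPM in WT (−0.61, adjusted p = 0.00297); Dock2 (−0.71), Itgb2 (−0.54) and Cd48 (−0.74) fell with it, the last without a call when KO replicate 2 (−0.55) or WT replicate 2 (−0.56) was left out.

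Markers of lymphocytes and granulocytes differed too. Of 8 B cell symbols searched, only Blk was listed, with 15 and 22 footprints in the WT libraries and no listed value in KO (14 at most); the defining genes Cd79a and Ms4a1 were not listed. Of 9 tested T cell genes 3 fell, namely Cd3e (−2.57), Cd3g (−2.48) and Ctsw (−0.91), and 6 were not called (median −0.75, range −2.57 to 0.71). The 9 summed to 250 and 251 CPM in KO and 336 and 297 CPM in WT. A further 6 T cell symbols were not listed in every library. All 7 tested mast cell and neutrophil genes rose (median 1.34), among them the mast cell proteases Cpa3 (1.34) and Cma1 (1.37) and the neutrophil and keratinocyte proteins S100a9 (3.11) and S100a8 (2.54). S100a9 ran from 2.02 without KO replicate 1 to 3.72 without KO replicate 2, and S100a8 from 1.65 without KO replicate 1 to 3.45 without WT replicate 2 (1.87 without WT replicate 1). How far these cells share in the class II changes was not tested.

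Signals that keep or recruit Langerhans cells moved in both directions. Of 23 tested, 7 rose, 8 fell and 8 were not called, with a median of 0.02. Among all genes tested, 19.9% rose and 19.1% fell. Il34, the keratinocyte cytokine on which epidermal Langerhans cells depend, had 11.7 and 11.4 CPM in KO and 26.7 and 19.4 CPM in WT (−1.01, SE 0.213, adjusted p = 0.00519, edgeR). Its relative Csf1 fell by 0.74 on the log2 scale and Tgfb2 by 1.61, while Tgfb1, which Langerhans cells also need, had 30.9 and 23.2 CPM in KO and 21.5 and 24.5 CPM in WT and did not pass (0.24, adjusted p = 0.318). Itgb6, an integrin chain that activates TGF-β, rose (1.46), with values from 0.89 without WT replicate 1 to 2.21 without WT replicate 2. Cxcl14 (−2.05), a chemokine of resting epidermis, and Gas6 (−1.74), the ligand of Axl, fell. Ccl20, the chemokine that draws Ccr6-bearing cells, had 60.4 and 49.7 CPM in KO and 3.69 and 5.54 CPM in WT (3.60, SE 0.218, adjusted p = 7.82e-06), and the cytokine Il18 rose by 1.72. The receptor Ccr6 fell (−0.94, adjusted p = 0.00971), a call that DESeq2 did not make (adjusted p = 0.0862). Ccr7, which guides dendritic cells to lymph nodes, had 14 and 22 footprints in KO and was listed in neither WT library, which allows 10 at most. Fscn1, an actin bundler of mature dendritic cells that other skin cells also make, rose (1.17, adjusted p = 0.000146).

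The 5′ UTRs of the 9 genes held few footprints. Of 5 genes with at least 1 in every library, 4 (H2-Ab1, H2-Eb1, Cd74 and H2-DMb1) had a larger share in both KO libraries and Epcam did not. Over all transcripts, the 5′ UTR share of 5′ UTR plus coding footprints was 1.52% and 1.76% for the KO libraries, against 1.12% and 1.03% for the WT libraries. H2-Ab1 had 9 and 11 footprints in its 5′ UTR in KO and 7 and 3 in WT, or 0.322% and 0.447% against 0.136% and 0.0636%. H2-Eb1 had 0.151% and 0.141% against 0.0573% and 0.0503%, from 3 or 4 footprints a library. Cd74 had 0.171% and 0.389% in KO against 0.139% and 0.150% in WT. H2-DMb1 stood highest, with 11 and 8 footprints in KO and 6 and 4 in WT, or 7.14% (exact 95% binomial interval 3.62% to 12.4%) and 3.57% (1.55% to 6.92%) against 1.46% (0.537% to 3.14%) and 1.504% (0.411% to 3.81%). Of 4253 transcripts with at least 1 footprint in the 5′ UTR in every library, 46.7% had a larger share in both KO libraries than in both WT libraries, so the count of 4 in 5 stands against a high background. The intervals cover counting error only. The shares are not scaled by 5′ UTR length, which was 202 nt for H2-DMb1, 79 nt for Cd74 and H2-Ab1, 81 nt for H2-Eb1 and 449 nt for Epcam. H2-DMa and Cd207 held no 5′ UTR footprint in any library; for H2-DMa, with 3 footprints taken as the limit that a count of 0 allows, the share could reach 1.46% and 1.69% in KO and 0.800% and 0.880% in WT. The upper ends of the exact 95% intervals are 1.78% and 2.06% in KO and 0.979% and 1.08% in WT. Ciita had 0 and 3 in KO and 4 and 4 in WT, and the row of H2-Aa lists no 5′ UTR. Per nt, the 66 nt 5′ UTR of Ciita stood at 0 and 1.05 times its coding density in KO and 0.611 and 0.643 times in WT. For H2-DMb1 these values were 0.276 and 0.133 in KO and 0.0531 and 0.0549 in WT.

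**Figure D5:**
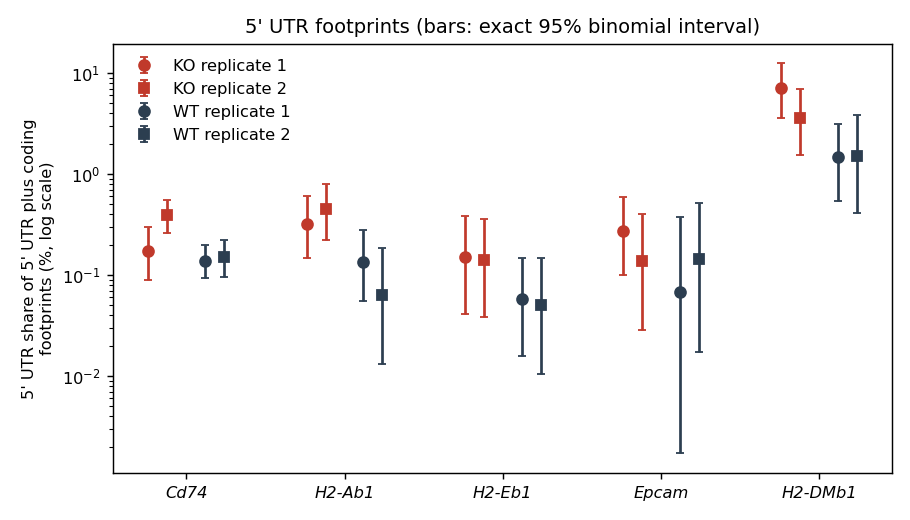
Share of 5′ UTR footprints among 5′ UTR plus coding footprints (percent, log scale) in each library for the 5 genes with at least 1 in every library; bars are exact 95% binomial intervals. H2-DMb1 stands highest, at 7.14% and 3.57% in KO and 1.46% and 1.504% in WT, and the intervals are wide where few footprints were counted.

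The 3′ UTR is where ribosomes that pass the stop codon without release can be found. Over all transcripts, the 3′ UTR share of 3′ UTR plus coding footprints was 0.595% and 0.635% for the KO libraries, against 0.726% and 0.692% for the WT libraries. Among the 9 genes, only Cd74 and Ciita were lower in both KO libraries as well, in the same direction as all transcripts. How many of all transcripts had both KO libraries below both WT libraries in this share was not counted. Cd74 had 37 and 39 footprints in its 3′ UTR in KO and 127 and 124 in WT, a share of 0.525% and 0.505% against 0.605% and 0.770% of 3′ UTR plus coding footprints. Ciita had 0 and 2 in KO and 13 and 9 in WT, or 0% (up to 2.34% with 3 footprints as the limit) and 1.34% against 3.70% and 2.73%. H2-Eb1 had 1.34% and 0.804% in KO and 1.15% and 1.47% in WT, H2-Ab1 0.215% and 0.487% against 0.445% and 0.883%, and H2-Aa 0.574% and 0.138% against 0.496% and 0.496%. For these last 3 genes the genotypes overlapped. They also overlapped for Cd207, Epcam and H2-DMa, and H2-DMb1 held a 3′ UTR footprint in KO replicate 2 alone. No test was run on these shares.

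By the shape of their profile over the 4 libraries, the genes closest to Cd207 were Pot1a, Gorasp1, Nceh1, Vamp2 and Cox15, at Euclidean distances of 0.0417 to 0.0534 between centred log2 CPM profiles. Closest to Cd74 were Iqcb1, Pik3r1, Add3, Fam219a and Kdm1b, at 0.0255 to 0.0645. With 4 libraries such likeness is common: 242 genes lay within 0.2 of Cd207 and 86 within 0.2 of Cd74, of 10492.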

How the data were processed

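Ribosome profiling libraries of mouse epidermis were analysed, 2 KO and 2 WT; the labels also name 2 KO and 1 WT RNA-seq libraries, not analysed here. Per the labels, rRNA was depleted with RiboZero-Gold. The submitters' processing notes list mm9 and hg19 as builds and, among tools, TopHat2 2.0.10, Bowtie2 2.2.6 and CASAVA 1.8, with no roles. The deposited counts are raw footprints per transcript region on mm9 annotation, per the deposited description, with region lengths (another deposited column); 24 deposited density, score and ratio columns were not used. A table described as 28 to 34 nt footprints and one described as 20 to 22 nt are byte-identical, so the length class is unknown. The sources used here give neither strandedness nor the treatment of shared reads. Counts are listed only above a coding density of 0.01 per nt, so an unlisted value is a bound.

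Transcripts listed in all 4 libraries with at least 10 counts in at least 2 were scaled by TMM (factors 0.926 to 1.09) and tested by genotype with edgeR 4.0.16 in R 4.3.3, two-sided, adjusted over all genes. CPM uses these factors; a level per kb divides CPM by coding length. The test was checked on simulated counts. The coding footprint totals limit precision for rare genes such as Cd207. Alternatives were DESeq2 1.42.0, other scaling, no filter, unlisted counts at 0, whole-transcript counts, each library left out and a replicate block.

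The 9 genes and the 13 lists (199 symbols) were chosen with earlier results of these data known. Named were all 9, Pelo, up to 4 genes of each list with the largest change past the threshold, and the 5 nearest profiles of Cd207 and Cd74; other list members, the H2 genes and the motifs were chosen after their values were seen. A list is described by its counts and its median, without a test.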

Additional observations from a re-analysis of the deposited data

How the results depend on the processing

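Among the 9 genes, no alternative turned a direction. Of 99 values for them, 93 kept their side of the threshold; the exceptions were H2-DMb1 and Cd207, given above. With library totals alone, Cd207 passed (−0.63, adjusted p = 0.0189), the median of all genes moved from −0.02 to −0.20, and 1501 genes rose and 3023 fell, against 2184 and 2093. DESeq2 called 1492 higher and 1177 lower. Leaving out 1 library, 1696 to 1955 genes rose and 1546 to 1871 fell; of the 9 genes 6 to 8 fell and 1 rose. The replicate block called 2212 higher and 2125 lower, and 8 of the 9 genes lower. No pairing by replicate number was seen: the differences between replicates of KO and of WT correlated at r = −0.00914 across 10492 genes, which are not independent replicates. This r does not settle whether libraries of 1 replicate number were handled together.

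Of 869 values for 79 named genes, 10 changed sign in genes not called in the main comparison: Itgax without KO replicate 2 (0.15, range −0.26 to 0.15 with 1 library left out); H2-Ea-ps without KO replicate 1 (0.08) or WT replicate 1 (3.39, range −5.45 to 3.39); B2m without WT replicate 1 (0.07, range −0.45 to 0.07); with library totals, Ctss (−0.03), C1qa (−0.14) and C1qb (−0.11); and C1qa with whole-transcript counts (−0.01), without KO replicate 1 (−0.02) or without WT replicate 1 (−0.03, range −0.03 to 0.11). Further calls lost were Psmb9 (adjusted p = 0.109) and Nlrc5 (0.0581) with unlisted counts at 0, Psmb9 with whole-transcript counts (0.0502), Cd48 (0.0555), Flt3 (0.187) and Csf1r (0.179) with DESeq2, and Csf1r with DESeq2 size factors (0.0512) or unlisted counts at 0 (0.0638). Depth limits Cd207, with 116 to 235 footprints a library, and every UTR value.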
